A study of Mus musculus with 8 samples.

Results

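The genes described here are 8 members of the mouse β-1,3-N-acetylglucosaminyltransferase (β-1,3-GlcNAc transferase) group, B3gnt2, B3gnt3, B3gnt4, B3gnt5, B3gnt7, B3gnt8, B3gnt9 and B3gntl1, out of 56748 genes in the count tables. They were chosen by name and with the Mettl3-RNP against Pulsed difference of B3gnt9 already known, so their differences between the groups are given as a description, with no p. Whether a member passed the thresholds of the fit over all genes is stated beside the share of all genes that passed, and nothing is read from it. RNA-seq was performed on resting bone marrow derived mast cells (BMMCs), mast cells differentiated in culture from the marrow of young adult C57BL/6 mice. In the Mettl3-RNP group, with the genotype label Mettl3 KO, 4 cultures were transfected with ribonucleoproteins (RNPs) of Cas9 and guide RNAs against Mettl3, the catalytic subunit of the complex that methylates mRNA adenosines at N6 (m6A). In the Pulsed group, 4 cultures underwent the transfection procedure with no RNP added (mock transfection). No clone was selected, and the study states that untargeted cells remained among the transfected ones. According to the series text the 8 cultures came from 4 mice, and libraries with the same replicate number were compared as a pair. Bulk libraries cannot tell fewer cells of a type from less RNA per cell.

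β-1,3-GlcNAc transferases are Golgi enzymes that add N-acetylglucosamine to galactose. Working in turn with β-1,4-galactosyltransferases, they build polylactosamine, a chain of repeated N-acetyllactosamine units on N-glycans, O-glycans and glycolipids that can be branched, sulfated, sialylated or fucosylated and that galectins bind. m6A lies mostly within the letters GGACT and related forms, near stop codons and in long exons, and is depleted close to exon junctions, so that genes with their coding sequence in a single long exon differ from most genes in where the mark can lie. m6A itself was not measured in these libraries. The study mapped it in separate libraries of resting and stimulated BMMCs, which are not used here.

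The exon structure of the members did not use any count. In the GENCODE annotation (release 39, build GRCm39), 5 of the 8 members carried their whole coding sequence in 1 exon: B3gnt2, B3gnt4, B3gnt5, B3gnt8 and B3gnt9. Of the 12056 tested protein-coding genes, 8.34% had a coding sequence in 1 exon in their longest transcript (5.79% in the transcript with the longest coding sequence, where the median gene had 9 coding exons). B3gnt9 (chr8:105979270-105981789, minus strand) was a gene without introns in its longest transcript, of 2516 bases, as was B3gnt4 (chr5:123648523-123649945, plus strand), of 1423 bases. B3gnt8 (chr7:25326079-25334525, plus strand) had 1 junction in the transcript with the longest coding sequence, upstream of the start codon. B3gnt2 (chr11:22709738-22823241, minus strand) likewise had 1 junction before the start codon. B3gnt5 (chr16:19578948-19591507, plus strand) had 6 exons, and its coding sequence lay in 1 of them. B3gnt3 (chr8:72142179-72156241, minus strand) and B3gnt7 (chr1:86230554-86235027, plus strand) had 2 coding exons each. B3gntl1 (chr11:121498254-121564313, minus strand) stood apart, with 12 exons that all held coding sequence.

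Measured as junctions per kb of the longest transcript, the members had a median of 0.365, and the tested protein-coding genes a median of 1.84. B3gntl1, at 2.50 junctions per kb, was above 64.1% of those genes. The proteins also separated B3gntl1 from the rest. Translated from the annotated coding sequences and aligned in pairs, B3gnt9 (399 residues) shared 44.6% of residues with B3gnt4, 41.8% with B3gnt7, 41.1% with B3gnt3, 39.6% with B3gnt8, 38.0% with B3gnt2 and 27.4% with B3gnt5, each as a share of the shorter protein. B3gntl1 (359 residues) shared at most 2.79% with any other member, but its alignments paired only 6 to 43 residues. Those of B3gnt9 with the members listed above paired 316 to 366. Gaps at the ends were not penalized, so most of B3gntl1 was left unaligned, and its shares are not the same measure as those of B3gnt9. B3gntl1 carries the name of the family, but under this setting it was not aligned over more than 43 residues with any of them.

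The opening stretches of the coding sequence show this contrast. Below are the 240 coding bases from the start codon of B3gnt9 (chr8:105981147-105981386, minus strand) and of B3gntl1 (minus strand, within chr11:121561721-121563858, introns left out), where capitals mark the pair of bases that flank an exon junction. B3gnt9 held no junction there and B3gntl1 held 2.
B3gnt9: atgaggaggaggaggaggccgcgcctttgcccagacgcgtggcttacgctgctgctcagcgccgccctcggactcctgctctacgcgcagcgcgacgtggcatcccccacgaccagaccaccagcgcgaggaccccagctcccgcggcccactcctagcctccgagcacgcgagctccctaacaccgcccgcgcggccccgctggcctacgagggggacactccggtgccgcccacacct
B3gntl1: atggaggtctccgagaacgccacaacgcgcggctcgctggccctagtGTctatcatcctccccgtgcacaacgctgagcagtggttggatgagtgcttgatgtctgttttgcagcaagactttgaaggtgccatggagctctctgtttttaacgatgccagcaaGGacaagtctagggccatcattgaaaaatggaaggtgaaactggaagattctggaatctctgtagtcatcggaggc

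Coding sequences were also searched for GGACT, the most frequent form of the m6A consensus, on the RNA strand only, where matches cannot overlap each other. B3gnt8 held 5 matches, B3gnt9 and B3gnt4 held 3 each, B3gnt7 and B3gntl1 held 1 each, and B3gnt2, B3gnt3 and B3gnt5 held 0. Among the 1502 protein-coding genes with a coding length in the range of the members (1053 to 1200 bases), 72.6% held at least 1 match, the median was 1, 17.1% held at least as many as B3gnt9 and 0.999% at least as many as B3gnt8. A match is a stretch of letters and says nothing of methylation. The densest stretch of 120 coding bases in B3gnt8 (chr7:25327786-25327905, plus strand), shown because it holds 3 matches, is set beside a stretch of B3gnt9 (chr8:105981233-105981352, minus strand) that holds 1. Capitals mark GGACT.
B3gnt8: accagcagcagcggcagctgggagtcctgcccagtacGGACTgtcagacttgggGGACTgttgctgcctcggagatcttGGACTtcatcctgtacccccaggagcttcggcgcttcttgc
B3gnt9: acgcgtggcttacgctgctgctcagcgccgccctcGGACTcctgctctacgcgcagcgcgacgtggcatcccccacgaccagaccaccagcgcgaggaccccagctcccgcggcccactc

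The 8 libraries held 32643260 to 45324826 counts each. Mettl3 checked the labels. Its level, as CPM (counts per 1000000, with library sizes scaled by TMM, the trimmed mean of ratios), was 12.3, 9.18, 4.88 and 9.21 in Mettl3-RNP 1 to 4 and 25.9, 24.5, 11.2 and 26.5 in Pulsed 1 to 4. Mettl3 was lower in 4 of 4 pairs, with a log2 fold change of -1.30 ± 0.109 (SE, n = 4 pairs, edgeR quasi-likelihood test, adjusted p = 0.0054), although Pulsed 3 lay below Mettl3-RNP 1. A cut by Cas9 need not remove the mRNA, so this level checks the label only in part. The mast cell marker list (10 genes, 9 tested) was abundant in every library, summing to 45891 to 62349 CPM in Mettl3-RNP and 49695 to 68108 CPM in Pulsed, and no marker of it passed both thresholds used here, an adjusted p no greater than 0.05 and a fold change no smaller than 1.5 (in edgeR, 1 was lower at the adjusted p alone, 2 had an unadjusted p under 0.05, and DESeq2 and limma-voom called 0). Neutrophil markers summed to at most 0.373 CPM, with S100a8, S100a9, Elane and Camp at 0 counts in all libraries. Basophil markers summed to 1795 to 2420 CPM in Mettl3-RNP and 2244 to 3322 CPM in Pulsed, with 2 of 5 lower past both thresholds. Erythroid markers summed to 9.16 to 14.8 and 15.4 to 28.8 CPM, and macrophage markers to 1.14 to 3.68 and 2.60 to 4.72 CPM, each with 1 of 3 tested genes lower past both thresholds. The part of these shifts in the results for the transferase genes was not tested.

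B3gnt9 had the largest fitted fold change between the groups among the tested members. It measured 11.3, 29.0, 16.0 and 25.5 CPM in Mettl3-RNP 1 to 4 and 3.91, 6.24, 2.69 and 6.16 CPM in Pulsed 1 to 4. Every Mettl3-RNP library was above every Pulsed library, and the lowest Mettl3-RNP library was well above the highest Pulsed one. The means were 20.4 ± 8.22 and 4.75 ± 1.75 CPM (SD, n = 4), the fitted fold was 4.26 and the log2 fold change 2.09 ± 0.166 (SE). The differences within the pairs, on the log2 CPM scale, were 1.51, 2.21, 2.55 and 2.04.

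B3gnt8, which forms a complex with B3gnt2 and raises its activity on N-glycans, was also higher in all 4 Mettl3-RNP libraries. It measured 24.4, 34.0, 22.6 and 33.8 CPM in Mettl3-RNP 1 to 4 and 14.8, 10.9, 7.14 and 16.1 CPM in Pulsed 1 to 4. The groups again did not overlap, and on the log2 CPM scale pairs 2 and 3 were farther apart than pairs 1 and 4. The log2 fold change was 1.27 ± 0.165, a fold of 2.41, with pair differences of 0.72, 1.64, 1.66 and 1.06.

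B3gnt2, the main polylactosamine synthase of many cells, measured 17.8, 16.6, 15.2 and 16.5 CPM in Mettl3-RNP and 11.3, 9.69, 12.1 and 12.2 CPM in Pulsed. Here the replicates lay close together and the groups did not overlap. The log2 fold change was 0.55 ± 0.109, a fold of 1.46.

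B3gnt3, which extends core 1 O-glycans, was a low gene at 0.754, 1.42, 0.535 and 1.94 CPM in Mettl3-RNP and 0.422, 0.366, 0.398 and 0.520 CPM in Pulsed. These levels came from 16 to 68 counts in Mettl3-RNP and 14 to 19 counts in Pulsed libraries. The groups did not overlap, but only just, and the log2 fold change of 1.30 ± 0.428 carried the largest error of the tested members. Pairs 2 and 4 differed by 1.82 and 1.79, pairs 1 and 3 by 0.76 and 0.38.

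B3gnt7, an enzyme of keratan sulfate chains, measured 3.39, 5.23, 5.25 and 3.25 CPM in Mettl3-RNP and 3.04, 7.57, 6.46 and 5.04 CPM in Pulsed. The groups overlapped, pair 1 was higher in Mettl3-RNP and the other 3 pairs lower, and the log2 fold change was -0.34 ± 0.164. B3gntl1 measured 4.68, 5.05, 2.54 and 5.50 CPM in Mettl3-RNP and 5.79, 5.35, 3.75 and 5.64 CPM in Pulsed. Its groups overlapped too, with both libraries of pair 3 lowest in their group. It was lower in Mettl3-RNP in 4 of 4 pairs, by 0.04 to 0.55 on the log2 CPM scale, and the log2 fold change was -0.24 ± 0.145.

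B3gnt4 and B3gnt5 were too low to be tested. B3gnt5, which starts the lacto-series glycolipids, had 2, 11, 0 and 0 counts in Mettl3-RNP and 0, 2, 3 and 0 counts in Pulsed. Most of its counts came from Mettl3-RNP 2, the library with the most genes detected (28483, against 21871 to 27045 in the other libraries). B3gnt4 had 0 counts in all 8 libraries, which allows up to 3 counts, or 0.0662 to 0.0919 per 1000000 total counts of a library (counting error only). All 1423 bases of its exon lie on the opposite strand of exons of Diablo and Gm49027. Whether counting used strand is not given in the sources used here, and without strand a read over both genes can be left uncounted, so the 0 does not show that B3gnt4 was silent.

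**Figure D1:**
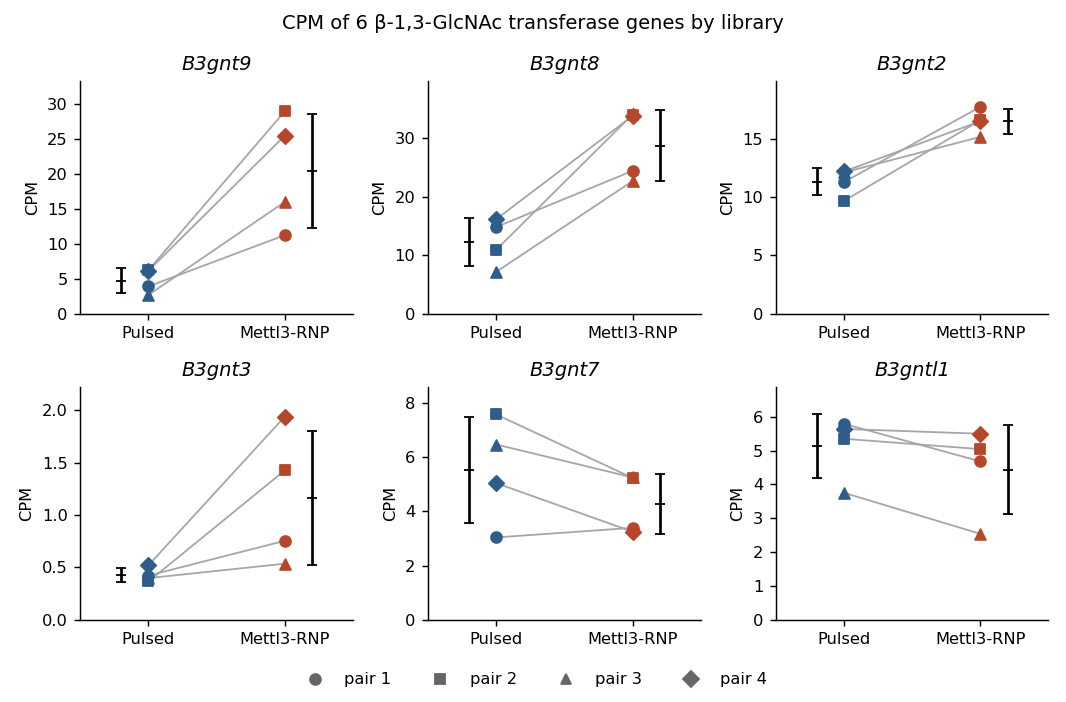
CPM of the 6 tested members in the 8 libraries, with Pulsed in blue and Mettl3-RNP in red. Lines join libraries of a pair, symbols give the pair number, and the black bars beside the points are the mean ± SD of 4 libraries. The Mettl3-RNP points of B3gnt9 lie between 11.3 and 29.0 CPM, above the Pulsed points at 2.69 to 6.24 CPM, while those of B3gnt7 and B3gntl1 overlap.

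Of the 6 tested members, 2 (B3gnt8 and B3gnt9) were higher past both thresholds, where 1.24% of the 14942 tested genes were (2.06%, or 308 genes, in either direction). B3gnt2 met the adjusted p but not the fold, and at the adjusted p alone 2.35% of tested genes were higher and 1.39% lower. No member passed in the lower direction, where 0.816% of tested genes did. The groups did not overlap, with Mettl3-RNP higher, for 4 of the 6 members and for 2.03% of tested genes. Since the members were selected on this contrast, nothing is read from these counts. Leaving out pair 2 took the call of B3gnt8 away (log2 fold change 1.13) and left that of B3gnt9 (2.04), and the calls over all genes went down to 26. Without pair 3, B3gnt2 joined the calls at a log2 fold change of 0.62, but without pair 1, 2 or 4, or without pairing, it missed the adjusted p too. B3gnt3 was called in 1 of 10 alternatives that gave it an adjusted p (DESeq2 gave none), with at least 10 counts asked of every library (1.34), and in none that left out a pair. Without pairing the libraries, the log2 fold changes were 2.11 for B3gnt9 and 1.23 for B3gnt8, and edgeR called 0 genes of all 14942 (579 at an unadjusted p under 0.05).

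Set against the gene models, the 3 tested members with 1 coding exon had log2 fold changes of 2.09 (B3gnt9), 1.27 (B3gnt8) and 0.55 (B3gnt2). The pair with 2 coding exons lay on either side of 0, B3gnt3 at 1.30 and B3gnt7 at -0.34. B3gntl1, with 12 coding exons, was at -0.24. B3gnt9, without a junction, thus had the largest value, but B3gnt3, with a junction inside its coding sequence, was as high as B3gnt8. Over all tested protein-coding genes, the median log2 fold change was 0.08 for the 1005 with 1 coding exon in their longest transcript and 0.00013 for those with more. Of the 1005 genes, 42 (4.18%) were higher past both thresholds, against 1.15% of those with more coding exons. With the transcript of the longest coding sequence, the shares were 6.02% of 698 genes and 1.11%, and the medians 0.15 and -0.0029. These values are a description, with no test.

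**Figure D2:**
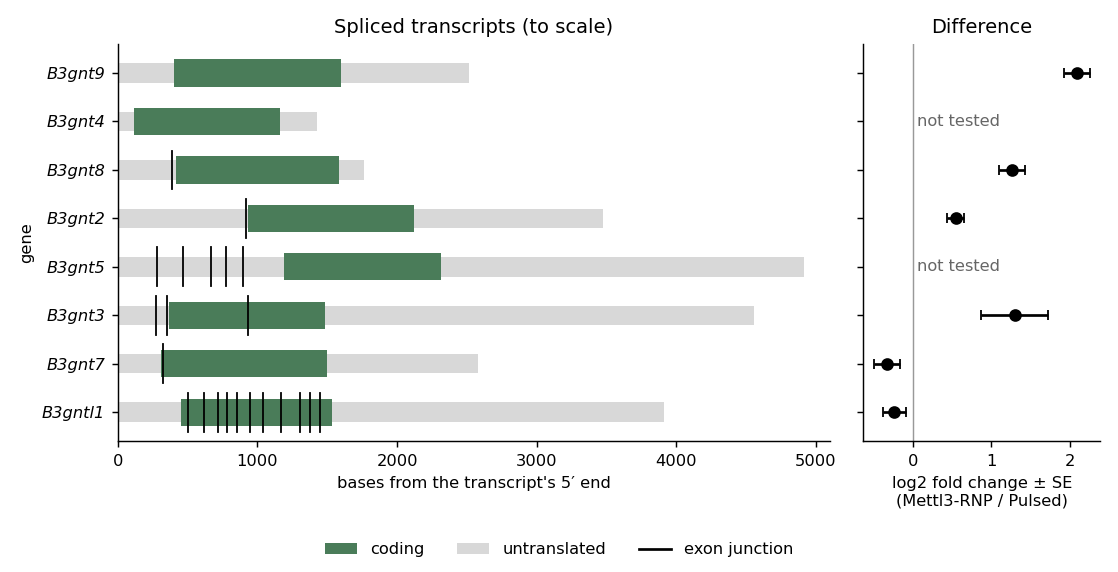
Spliced transcripts with the longest coding sequence of the 8 members, drawn to scale in bases from the 5′ end (left; green, coding; grey, untranslated; black line, exon junction), beside the log2 fold change ± SE from 4 pairs (right). The coding sequence of B3gnt9 holds no junction and that of B3gntl1 holds 11, at log2 fold changes of 2.09 and -0.24, whereas B3gnt3 has a junction in its coding sequence and a value of 1.30.

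As a measure of background reads, counts of genes outside the mast cell repertoire were summed. Olfactory and vomeronasal receptor genes (1407 in the tables), which mast cells are not known to use, summed to 62.1, 244, 109 and 60.3 CPM in Mettl3-RNP 1 to 4 and 95.2, 68.9, 168 and 23.9 CPM in Pulsed 1 to 4. The groups overlapped. The highest sum was in Mettl3-RNP 2, which also had the highest B3gnt9 level, whereas Pulsed 3, next at 168 CPM, had the lowest B3gnt9 level. The part of these reads in the level of B3gnt9 was not tested.

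Genes whose exons overlap a member can share reads with it where strand is not used. Phaf1, an autophagy factor, runs opposite to B3gnt9 and overlaps 416 bases (16.5%) of its exons. Its log2 fold change was 0.13 ± 0.092 (edgeR, adjusted p = 0.47). Bckdha, a subunit of the branched-chain keto acid dehydrogenase, lies opposite to B3gnt8 over 2386 bases (36.5%) and had -0.24 ± 0.104 (edgeR, adjusted p = 0.23). Jak3, a cytokine receptor kinase, overlaps 20.5% of the exons of B3gnt3 and had 0.01 ± 0.080 (edgeR, adjusted p = 0.94). None of these 3 neighbours passed a threshold. A read over both genes can be left uncounted, so these values do not show whether reads were shared or lost. The other overlapping genes that were tested, Tbcd (opposite to B3gntl1), Diablo and Gm49027 (opposite to B3gnt4) and 9130230N09Rik (opposite to B3gnt2), had log2 fold changes from -1.28 to -0.09, and none passed (edgeR, adjusted p from 0.12 to 0.56). Insl3 (B3gnt3), Gm28626 (B3gnt7), Gm12057 and Commd1b (both B3gnt2) were too low to test. Commd1b, on the same strand as B3gnt2 and over 35.2% of its exons, had 0 counts in every library. A read over both genes can be left uncounted there even where strand is used. The 0 thus does not show that Commd1b was silent, and the level of B3gnt2 may lack such reads. Tradd, an adaptor of the TNF receptor named here after its values were seen, lies 3093 bases from B3gnt9 on the same strand without overlap. Tradd was higher in 4 of 4 pairs at 0.57 ± 0.108 (edgeR, adjusted p = 0.034), just short of a fold of 1.5.

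Levels of different members were compared per length, as counts per kb of the gene's exons per 1000000 TMM-scaled counts. In Pulsed libraries, the order was B3gnt9 (1.88 ± 0.694, SD, n = 4), B3gnt8 (1.87 ± 0.622), B3gnt2 (1.63 ± 0.168), B3gnt7 (1.34 ± 0.473), B3gntl1 (0.547 ± 0.100), B3gnt3 (0.0833 ± 0.0130) and B3gnt5 (0.00582 ± 0.00693). The leading 4 were not separated, since each neighbouring pair among them changed order in at least 1 library. From B3gnt7 down, each gene was above the next in 4 of 4 libraries. In Mettl3-RNP libraries the order of the means was B3gnt9 (8.11 ± 3.26), B3gnt8 (4.39 ± 0.923), B3gnt2 (2.37 ± 0.151), B3gnt7 (1.03 ± 0.269), B3gntl1 (0.473 ± 0.140), B3gnt3 (0.227 ± 0.13) and B3gnt5 (0.0143 ± 0.0224). There, all 6 neighbouring pairs kept their order in 4 of 4 libraries, with B3gnt9 above B3gnt8 by 0.26 to 1.14 on the log2 scale. With 4 libraries, the exact permutation test that flips the signs of the differences (two-sided) cannot go below p = 0.13, which all 9 pairs with a constant order reached (adjusted p = 0.17 over the 12 pairs compared), so this test could not place any of them under 0.05 whatever the size of the difference. The order of the leading members depended on the length used. With the longest transcript of each gene, the Pulsed order was B3gnt2 (3.26 ± 0.338), B3gnt8 (2.13 ± 0.706), B3gnt7 (2.12 ± 0.749) and B3gnt9 (1.89 ± 0.695), while in Mettl3-RNP B3gnt9 still led (8.12 ± 3.27), before B3gnt8 (4.99 ± 1.05) and B3gnt2 (4.76 ± 0.304). The longest transcript of B3gnt8 has 5756 bases and is annotated as a nonsense-mediated decay transcript, not as protein-coding. It is also part of the exon union of 6535 bases. The transcript of B3gnt8 with the longest coding sequence is annotated as protein-coding and has 1763 bases. With the latter transcript of each gene, a choice made after seeing the data, B3gnt8 led both groups, at 6.94 ± 2.30 in Pulsed and 16.3 ± 3.42 in Mettl3-RNP, and B3gnt9 stood at 1.89 ± 0.695 and 8.12 ± 3.27.

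**Figure D3:**
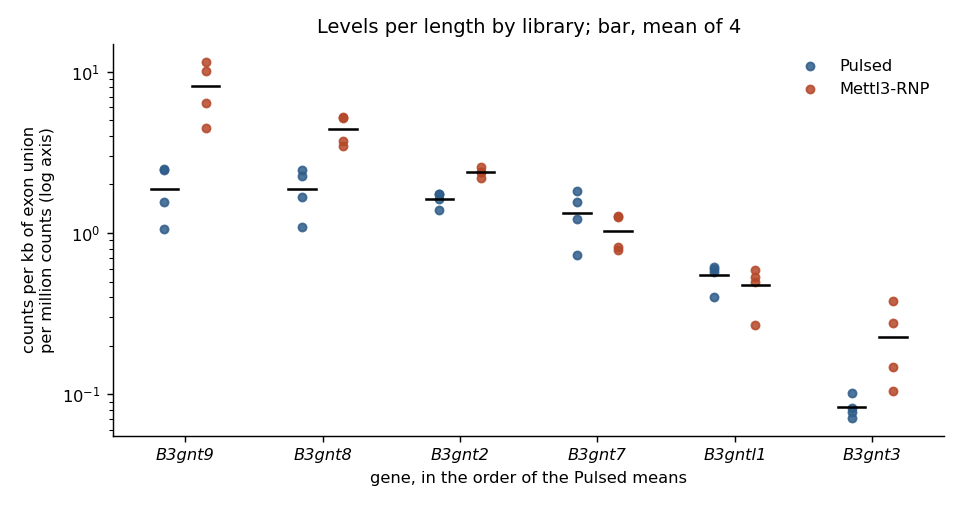
Counts per kb of exon union per 1000000 counts (log axis) of the 6 members with counts in every library, in the order of the Pulsed means, for Pulsed (blue) and Mettl3-RNP (red) libraries, with a bar at the mean of 4. B3gnt9, B3gnt8, B3gnt2 and B3gnt7 lie between 0.734 and 2.48 in Pulsed and spread to between 0.785 and 11.5 in Mettl3-RNP. B3gnt4 and B3gnt5 are not drawn.

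The enzymes around the members were read from 9 lists of 77 genes, of which 57 were tested. Of these 57, 1 rose past both thresholds and 0 fell, and at the adjusted p alone 2 rose and 1 fell. The call is 1.75% of the 57 genes, near the 1.24% of all tested genes called higher. At an unadjusted p under 0.05 in edgeR were 26 of the 57 (45.6%), 17 of them higher and 9 lower, and 3357 of all tested genes (22.5%), and DESeq2 called 2 of the 57 and limma-voom 1. The median log2 fold change over the 57 genes was 0.07, and -0.0013 over all tested genes.

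The gene that rose was Chst1, the sulfotransferase that adds sulfate to galactose of keratan sulfate. Chst1 measured 15.4, 23.1, 3.48 and 15.9 CPM in Mettl3-RNP 1 to 4 and 11.0, 8.38, 0.920 and 3.64 CPM in Pulsed 1 to 4. The groups overlapped because both libraries of pair 3 were low, but Mettl3-RNP was higher in 4 of 4 pairs, with a log2 fold change of 1.44 ± 0.256 (edgeR, adjusted p = 0.031). Without pair 2 the log2 fold change of Chst1 was 1.43 and the call was lost (edgeR, adjusted p = 0.12), and without pair 3 it was 1.33, also without a call (edgeR, adjusted p = 0.057). Its list, keratan sulfate and GlcNAc sulfotransferases, had 2 of 9 genes tested. The core proteins that carry keratan sulfate were too low to test, with Fmod at 0 in all libraries, as were the sulfotransferases Chst4 and Chst5.

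Among the 7 β-1,4-galactosyltransferases, the partners that add the galactose of each unit, the median log2 fold change was 0.31 and 5 values were above 0. B4galt1 met the adjusted p at 0.31 ± 0.066 (edgeR, adjusted p = 0.049), from 208 ± 26.6 CPM in Pulsed to 257 ± 30.5 CPM in Mettl3-RNP, a fold of 1.24. Its adjusted p was above 0.05 whichever pair was left out (edgeR, adjusted p from 0.099 to 0.27), without pairing, with DESeq2 size factors (edgeR, adjusted p = 0.051) and with every gene with a count tested (edgeR, adjusted p = 0.17). B4galt5, a lactosylceramide synthase, had 0.43 ± 0.112 (edgeR, adjusted p = 0.073). In the β-1,3-galactosyl and GalNAc transferase list (9 of 11 tested, median 0.27), B3galnt2, an enzyme of the glycan on dystroglycan, met the adjusted p in the lower direction at -0.40 ± 0.077 (edgeR, adjusted p = 0.035), but missed it whichever pair was left out (edgeR, adjusted p from 0.056 to 0.18), without pairing and with every gene with a count tested (edgeR, adjusted p = 0.069). B3galt6, which works on the proteoglycan linker, had 0.57 ± 0.160 (edgeR, adjusted p = 0.086). It was called in 1 of 11 alternatives, with every gene with a count tested (0.59; edgeR, adjusted p = 0.014).

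The other lists had no gene at an adjusted p of 0.05 or less in the main edgeR fit. In the list of other β-1,3-GlcNAc transferases, 4 of 5 genes were tested, Lfng and Mfng, the Notch-modifying fringe enzymes, had 0.36 ± 0.121 and 0.23 ± 0.114, and 1 gene was at an unadjusted p under 0.05. Among N-glycan branching enzymes (7 of 9 tested, 3 at an unadjusted p under 0.05), Mgat5, which opens the branch that polylactosamine prefers, had 0.40 ± 0.101 (edgeR, adjusted p = 0.070) and Mgat1, which starts complex N-glycans, 0.26 ± 0.090. Of the O-glycan and I branching enzymes only Gcnt1 and Gcnt2 were tested, at 0.08 ± 0.081 and -0.56 ± 0.237, with Gcnt2 lower at an unadjusted p under 0.05. The value of Gcnt2 was -0.27 without pair 3 and -0.89 without pairing. Among the sialic acid and fucose caps (9 of 14 tested, 5 at an unadjusted p under 0.05), St6gal1, an α-2,6-sialyltransferase of N-glycans, had -0.69 ± 0.173 (edgeR, adjusted p = 0.069) and St3gal1, which caps core 1 O-glycans, 0.54 ± 0.143 (edgeR, adjusted p = 0.076). DESeq2 called St6gal1.

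All 10 genes for UDP-GlcNAc synthesis and Golgi sugar transport were tested, with a median of -0.03, the smallest adjusted p for Uap1 (0.21 ± 0.064; edgeR, adjusted p = 0.10) and 2 at an unadjusted p under 0.05. Gfpt2, an amidotransferase at the entry of that route, had -0.60 ± 0.192 (edgeR, adjusted p = 0.12). The 7 galectins and polylactosamine carriers had a median of -0.08, with Lamp1, a lysosomal carrier of the chains, at -0.29 ± 0.095 (edgeR, adjusted p = 0.12) and Lgals9, a galectin, at -0.20 ± 0.068 (edgeR, adjusted p = 0.13), and 3 at an unadjusted p under 0.05. Across the lists, 13 tested genes had 1 coding exon in the transcript with the longest coding sequence, with a median log2 fold change of 0.26 and values from -0.39 to 1.44, and 44 had more, with a median of 0.03 and values from -0.69 to 0.68. Chst1 is among the 13. Over all tested protein-coding genes, the medians by the same transcript were 0.15 with 1 coding exon and -0.0029 with more.

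**Figure D4:**
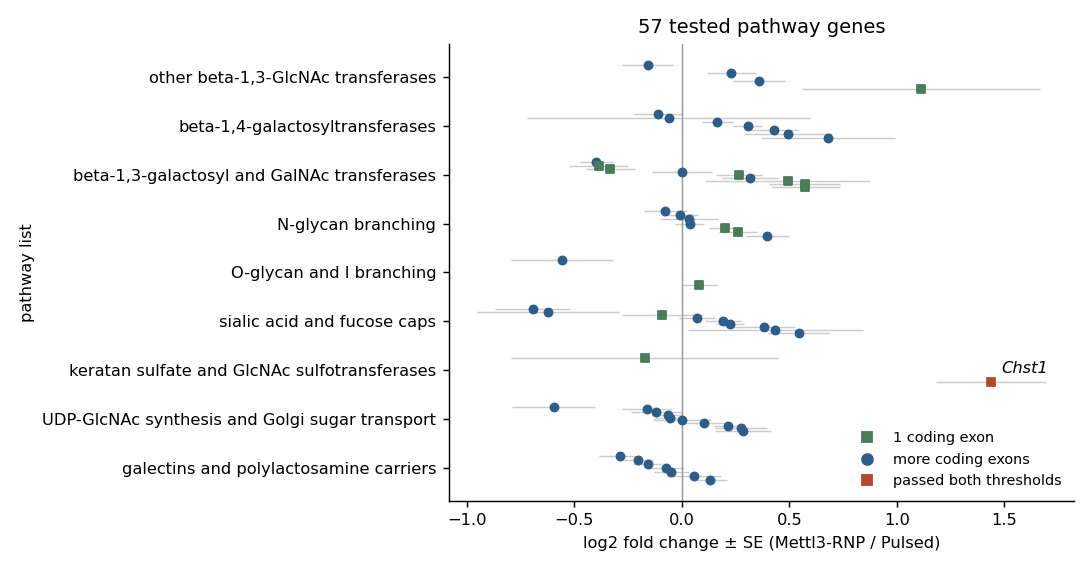
Log2 fold change ± SE (Mettl3-RNP over Pulsed, 4 pairs) of the 57 tested pathway genes by list. Green squares have 1 coding exon, blue circles more, and red marks the gene past both thresholds, Chst1 at 1.44. The other 56 genes lie between -0.69 and 1.11 and none passed both thresholds.

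The genes whose level followed that of B3gnt9 most closely over the 8 libraries, by Pearson correlation of log2 CPM among the 11985 tested genes that averaged 1 CPM or more, were Inka1 (r = 0.98), Tssc4 (r = 0.97), Abraxas2 (r = 0.97), Selplg (r = 0.97) and Cdc42ep5 (r = 0.97). The 8 points share pair and group, so these values are descriptions. The log2 fold changes of these genes ran from 0.27 for Abraxas2 to 2.93 for Cdc42ep5, and Tssc4, Selplg and Cdc42ep5 have 1 coding exon, Inka1 2 and Abraxas2 9. Among the members, B3gnt8 came 25th of the 11985 (r = 0.93), B3gnt2 had r = 0.77, and B3gntl1 and B3gnt7 had r = -0.07 and r = -0.24.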

How the data were processed

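RNA-seq libraries of poly-A RNA were sequenced as paired reads. According to the methods and the submitters' notes, the authors checked reads with FastQC 0.11.9, aligned them to GRCm39 with HISAT2 2.2.1 and used featureCounts 2.0.1 to count them by Ensembl gene. Each deposited table holds the whole-number counts of 1 library, not normalized. The study describes a batch correction after counting, with no batch named, which a table of whole counts does not carry. Strand and multimapping settings are not given in the sources used here.

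GENCODE release 39 named 56017 of 56748 IDs (98.7%), all 8 members included, and the unnamed IDs took no more than 0.113% of a library's counts. filterByExpr of edgeR 4.0.16 (R 4.3.3; counts of about 10) kept 14942 genes. The TMM-scaled quasi-likelihood test had the replicate number as a block, and SEs came from its statistic. Calls needed a Benjamini-Hochberg adjusted p of 0.05 or less over all tested genes and a fold change of at least 1.5. A prior count of 2 was added for log2 CPM. The series names 4 mice for 8 samples, and it is inferred, not stated, that equal numbers mark 1 mouse. Deviations from the group means correlated between libraries of equal number at 0.825, 0.489, 0.879 and 0.765 over 11985 genes, and those of different numbers at most at 0.183. Replicates differed by more than sampling noise (lowest chi-square over its degrees of freedom, 59.8). Total counts were 32643260 to 45324826 per library, and the errors of the fits come from the spread between pairs. Without molecular identifiers, reads are no count of molecules, so limits cover counting error only.

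Exon models and coding sequences came from GENCODE on GRCm39. Proteins for the identities were translated from these, since RefSeq proteins, foreseen in the plan, were not used here. The translations were aligned globally with BLOSUM62 (Biopython 1.88), with gaps at the ends left unpenalized. Level pairs had 0.5 added to counts. The fit was tested on simulated data. Alternatives used DESeq2 1.42.0 and limma 3.58.1.

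The members and gene lists were chosen with earlier results of these data known. The text names the members, Mettl3, every pathway gene past both thresholds or otherwise up to 2 per list with the smallest adjusted p, genes with exons that overlap a member (or else the nearest within 5 kb), and the 5 genes most correlated with B3gnt9. Tradd falls outside this rule, as do genes named for having 0 counts in all libraries. These are Fmod, Chst4 and Chst5, and the neutrophil markers S100a8, S100a9, Elane and Camp.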

Additional observations from a re-analysis of the deposited data

Results flagged for a closer look

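In 7 of 64 groups of 4 libraries examined (the tested members, Mettl3, the named pathway genes and the overlapping or adjacent genes), 1 library stood apart from the other 3 by Dixon's criterion, where chance alone gives about 3.2. No member was among them. Pulsed 3 was apart for Mettl3 (11.2 CPM, the others 24.5 to 26.5), B3galnt2 (24.6 CPM, the others 64.5 to 68.5), Diablo (27.9 CPM, the others 5.09 to 7.71) and Gm49027 (1.59 CPM, the others 0.496 to 0.602). Mettl3-RNP 3 was apart for Diablo too (21.0 CPM, the others 4.22 to 6.14). Pulsed 1 was apart for Bckdha (30.3 CPM, the others 22.0 to 23.3) and Mettl3-RNP 4 for Tbcd (65.8 CPM, the others 58.2 to 59.2).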

How the results depend on the processing

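All 264 alternative values of the 24 genes refitted (the 6 tested members, Mettl3 and 17 pathway genes) kept their direction, and 250 also stayed on the same side of the call, which needs both thresholds. Overlapping, adjacent and correlated genes were not refitted. With no replicate block edgeR called 0 of all tested genes (579 at an unadjusted p under 0.05), 0 members (4) and 0 pathway genes (1), against 308, 2 and 1 with it, while the log2 fold changes were 2.11 for B3gnt9, 1.23 for B3gnt8, 1.27 for Chst1 and -1.31 for Mettl3. Testing every gene with a count gave 579 calls and 4 pathway genes, the DESeq2 Wald test 505 and 2, and the adjusted p alone 559 and 3. Leaving out a pair gave 26 to 331 calls in all, 1 to 3 members and 0 to 3 pathway genes (14 pathway genes at an unadjusted p under 0.05 without pair 2 and 18 without pair 3). Over the alternatives the log2 fold changes of B3gnt9 ran from 1.94 to 2.23 and those of B3gnt8 from 1.13 to 1.42, a description since the members were chosen on this contrast. The number of neighbouring members in constant order was 3 to 4 in Pulsed and 4 to 6 in Mettl3-RNP under other lengths or without 1 library. Mettl3-RNP kept the same order of members without any 1 of its libraries, and in Pulsed B3gnt9 came behind B3gnt8 and B3gnt2 without Pulsed 2. The causes were not tested. B3gnt3 rests on 14 to 68 counts a library and B3gnt5 on 0 to 11.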
